A study of Mus musculus with 6 samples.

Results

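The mitochondrial ribosomal protein genes are the nuclear genes that encode the protein part of the ribosome inside mitochondria. They were taken as the protein-coding mouse genes whose symbol starts with Mrpl or Mrps followed by a number, leaving out pseudogenes. The rule itself uses names and no measured value, but the family was picked with earlier results of these data known. The rule found 78 genes, 49 named Mrpl and 29 named Mrps, among the 21006 genes in the deposited expression values. All 78 passed the filter on low values, a mean over the 6 samples of 0.1 FPKM or more, and none was listed at 0 in any sample. FPKM count fragments for each kilobase of exon and are scaled by depth, so that levels of different genes can be compared per length.

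The samples were prefrontal cortex, the front part of the cortex, from wild-type C57BL/6 male mice whose age label is 18 months, although the sample titles carry 17M. The PND group (n = 3), a model of postoperative neurocognitive disorder, received isoflurane anesthesia and exploratory laparotomy, which is the opening of the abdomen by surgery to inspect its organs. The CON group (n = 3) received neither this anesthesia nor an operation, so the effects of the anesthetic and of the surgery cannot be told apart in this design. Each mouse gave 1 sample. In the paper, the mice went through fear conditioning with foot shocks, an open field test and, last, a Barnes maze test of spatial memory. The tissue was taken after the Barnes maze, days after the operation of the PND mice. For this the mice of both groups were put under deep isoflurane anesthesia. The comparison asked whether the mRNA levels of these genes differed between PND and CON mice.

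The mitochondrial ribosome translates the few mRNAs that the mitochondrial genome encodes, all of which are for subunits of the respiratory chain and of ATP synthase. Its large subunit, with Mrpl proteins, joins the amino acids, and its small subunit, with Mrps proteins, reads the mRNA. Many of the proteins have a counterpart in the bacterial ribosome, and others are found only in mitochondria. In neurons, which depend heavily on respiration, inherited defects in several of these genes cause brain disease in humans.

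An estimated 7211066 to 9423801 fragments were behind each sample, as read from the smallest steps between FPKM values, and the median member was covered by 73.4 fragments per sample. Slc17a7, the glutamate transporter of cortical excitatory neurons, was at 27.7 to 58.1 FPKM in PND and 23.6 to 73.8 FPKM in CON. The summed levels of 5 choroid plexus markers were 0.774 to 1.45 FPKM in all samples, and those of the striatal neuron markers were 135 to 174 FPKM in PND and 88.6 to 226.7 FPKM in CON. Of 5 astrocyte markers 1 was higher and 1 lower, of 5 microglia markers 1 was lower and of 5 oligodendrocyte markers none differed at an unadjusted p below 0.05, which 3.13% of all genes tested had. The median log2 fold changes of these lists, PND against CON, were 0.046, 0.040 and -0.19. Gfap, an astrocyte filament gene, was higher in PND (unadjusted p = 0.0029 in limma), whereas Aqp4 of astrocytes (unadjusted p = 0.027) and P2ry12 of microglia (unadjusted p = 0.0077) were lower. The part of such marker differences in the results below was not tested. In bulk tissue, fewer cells of a type and less RNA per cell cannot be told apart.

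Of the 78 genes, 3 (3.85%) differed between PND and CON at an unadjusted p below 0.05 in limma, beside 3.13% of all 18185 genes tested. Mrpl57 and Mrps23 were higher in PND, as were 1.73% of all genes, and Mrpl42 was lower, as were 1.4%. None passed the cut-off of the study, an absolute log2 fold change above 1 with an unadjusted p below 0.05, which 1.33% of all genes passed. The lowest Benjamini-Hochberg adjusted p of any of the 78 was 0.99987, and 0.011% of all genes had an adjusted p below 0.05. The log2 fold change, here always PND against CON on the log2(FPKM + 0.1) scale, was above 0 in 39 genes and below 0 in 39. Its median was -0.0055, beside 0.012 over all genes tested, and its quartiles were -0.14 and 0.094. In 74 of the 78 genes it was smaller than 0.5 in size.

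How firmly a change could be bounded differed between genes. The 95% confidence interval of the fold change lay inside a 2-fold change in both directions for 61 of the 78 genes (78.2%), beside 61.5% of all genes tested. Where the mean was 1 FPKM or more the shares were 84.1% for these genes (58 of 69) and 81.7% for all genes. The standard error of the log2 fold change had a median of 0.23 and ranged from 0.10 to 0.71. For the remaining 17 genes the interval reached a 2-fold change or more, so a change of that size could not be told from none with these samples.

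**Figure D1:**
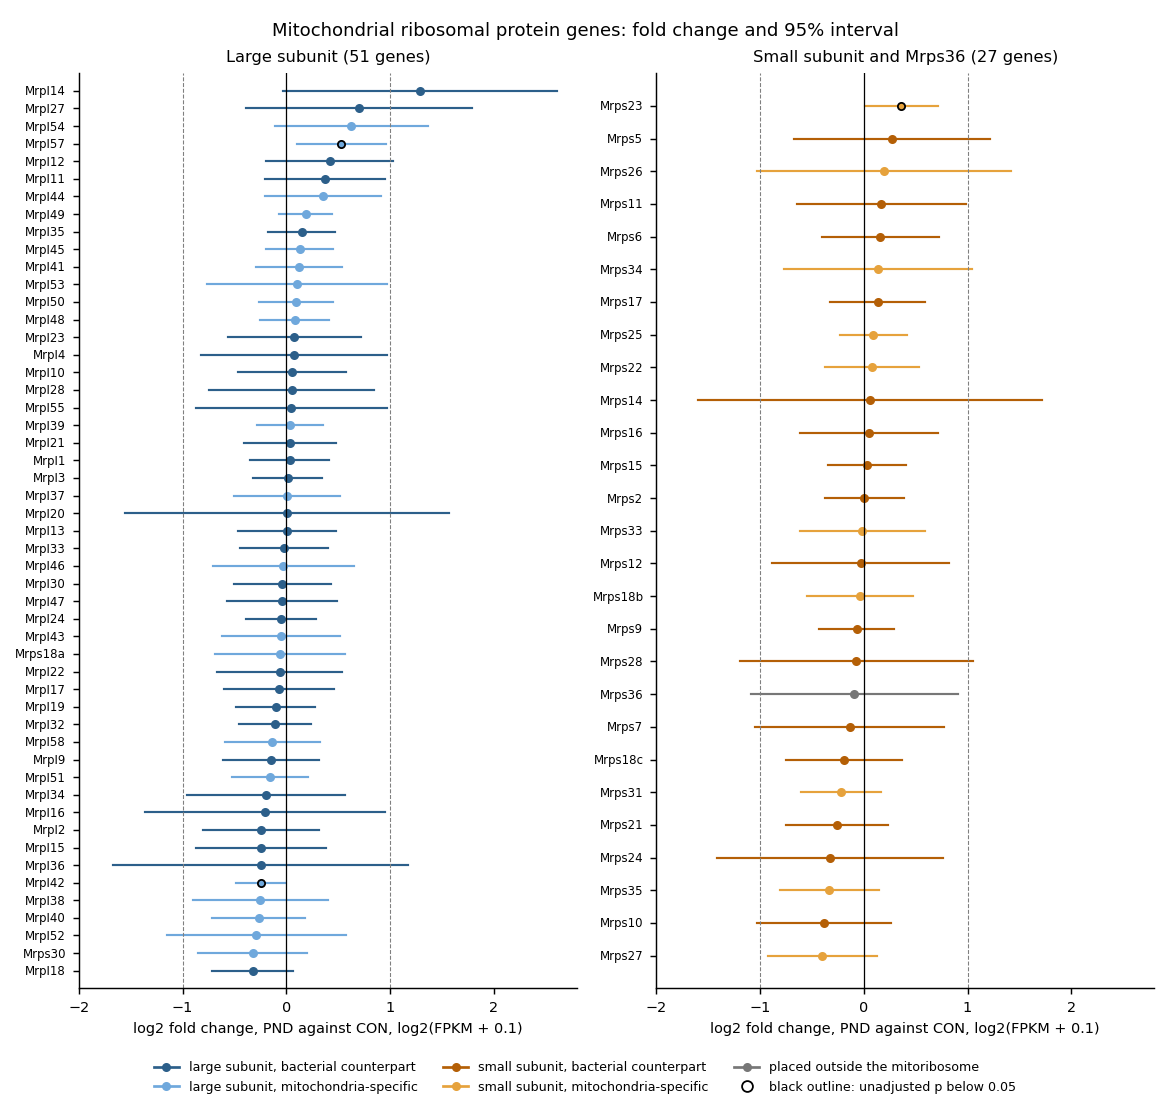
The log2 fold change (PND against CON, on the log2(FPKM + 0.1) scale) of each of the 78 genes is drawn as a point with its 95% confidence interval as a line, for the large subunit on the left and the small subunit with Mrps36 on the right; dashed lines mark a 2-fold change. The points lie on both sides of 0 (39 above and 39 below), and the 3 outlined points, Mrpl57, Mrps23 and Mrpl42, have an unadjusted p below 0.05.

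Stretches of 4 promoters are shown, those of the 3 genes with an unadjusted p below 0.05 and that of Mrps27, whose start region is shared with another gene described below. They also show the letters that recur around the starts of this gene family. They come from RefSeq on GRCm38.p6 and run 5′ to 3′ along the gene from 150 bases before the transcription start to 30 bases after it. Capitals mark matches to the strings searched below.
Mrpl57 (chr14:57826089-57826268, strand plus): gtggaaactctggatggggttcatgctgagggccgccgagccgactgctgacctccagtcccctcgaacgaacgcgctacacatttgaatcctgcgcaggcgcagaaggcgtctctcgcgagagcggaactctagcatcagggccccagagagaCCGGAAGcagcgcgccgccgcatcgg
Mrps23 (chr11:88204238-88204417, strand plus): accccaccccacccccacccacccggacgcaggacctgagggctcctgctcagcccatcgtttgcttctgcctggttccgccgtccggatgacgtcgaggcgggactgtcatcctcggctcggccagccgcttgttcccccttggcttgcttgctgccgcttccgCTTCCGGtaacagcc
Mrpl42 (chr10:95501920-95502099, strand minus): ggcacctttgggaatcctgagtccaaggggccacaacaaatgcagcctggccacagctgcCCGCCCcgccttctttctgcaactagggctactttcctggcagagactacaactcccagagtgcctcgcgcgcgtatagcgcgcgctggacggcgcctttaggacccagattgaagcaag
Mrps27 (chr13:99344636-99344815, strand plus): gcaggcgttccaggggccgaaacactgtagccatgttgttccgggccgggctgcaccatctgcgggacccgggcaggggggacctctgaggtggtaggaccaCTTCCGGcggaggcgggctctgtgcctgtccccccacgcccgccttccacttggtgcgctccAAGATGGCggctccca

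In Mrpl57 the capitals are an ETS string CCGGAAG that begins at base 5 after the start, and in Mrps23 they are the same string on the opposite strand, which begins at base 16. Mrpl42 holds a GC box on the opposite strand at base -90, and a YY1 string begins at base 28 and runs past the stretch shown. Mrps27 holds the ETS string on the opposite strand at base -48 and the YY1 string at base 15.

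Promoter windows of 300 bases, from 250 before to 50 after the start, were available for 69 of the 78 genes, which had 75 windows. Both strands were searched for 8 short strings, which were chosen after the shares of several had been seen, so the shares are descriptions. The ETS string CCGGAAG, the core bound by GABP and other ETS factors, was in 34.7% of the windows of these genes, in 15.5% of those of the protein-coding genes tested and in 8.86% of all 32851 windows. The YY1 string AAGATGGC was in 16% of the windows of these genes, in 3.94% of those of the tested genes and in 2.75% of all windows. GCATGCGC, a core of the site of NRF1, a regulator of nuclear genes for mitochondria, was in 10.7%, 4.81% and 2.71%, in the same order. The GC box GGGCGG was in 52% of the windows of these genes, below the 60.1% of the tested genes and above the 35.7% of all windows. The CCAAT box CCAAT was in 40%, 37.2% and 37.4%, and the TATA box TATAAA in 6.67%, 7.58% and 13.6%. The E box CACGTG was in 9.33%, 9.36% and 7.15%, and the cAMP response string TGACGTCA in 2.67%, 2.83% and 1.79%. The windows of these genes had a median GC content of 58.7% and all windows 52.7%. The 26 genes with an ETS string had a median log2 fold change of -0.032, and the 43 genes with windows that lacked it had 0.032.

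These genes often lie back to back with another gene. In GENCODE M21 (GRCm38), 33 of the 78 (42.3%) had a gene on the opposite strand that starts within 1000 bases and runs the other way, beside 14.7% of the 14301 protein-coding genes tested. A pair of the genes themselves, Mrpl46 and Mrps11 on chromosome 7, start 412 bases apart. Mrpl57 starts 49 bases from Ska3, Mrps12 starts 172 bases from Sars2, which encodes the mitochondrial seryl-tRNA synthetase, and Mrps27 starts 81 bases from Ptcd2.

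The levels of the 78 genes spanned from 0.232 FPKM in Mrpl53 to 19.8 FPKM in Mrpl50, with a median of 3.23 FPKM beside 3.10 for the protein-coding genes tested. Above 10 FPKM were 7 genes, and below 1 FPKM were 9. Mrpl50, Mrpl32, Mrpl49, Mrpl42 and Mrps31 had the highest means, in this order.

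Mrpl50, a large subunit protein found only in mitochondria, measured 19.5, 22.7 and 18.9 FPKM in PND replicates 1 to 3 and 23.04, 18.0 and 16.6 FPKM in CON replicates 1 to 3. Mrpl32, the large subunit protein that is matured by the mitochondrial m-AAA protease, measured 17.7, 20.7 and 14.98 FPKM in PND and 19.1, 17.4 and 20.8 FPKM in CON. The ranges of these genes overlapped with each other and between the groups, and Mrpl50 was above Mrpl32 in each sample except CON replicate 3. Mrps31, a small subunit protein found only in mitochondria, measured 15.4, 10.8 and 13.6 FPKM in PND and 13.4, 16.2 and 16.6 FPKM in CON, and it spanned the level of Mrpl42. The fold changes of these 3 genes were not past the test (limma, log2 0.094, -0.11 and -0.22, unadjusted p = 0.56, 0.48 and 0.22).

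At the other end, Mrpl53, placed near the stalk of the large subunit, lay at 0.161 to 0.303 FPKM in all 6 samples, which was a mean of 1.50 fragments per sample. Mrps24, a small subunit protein with a bacterial counterpart, ranged from 0.125 FPKM in PND replicate 2 to 0.526 FPKM in PND replicate 3. Mrps36, once counted as a ribosomal protein and now placed in the 2-oxoglutarate dehydrogenase complex, ranged from 0.257 FPKM in PND replicate 1 to 0.810 FPKM in CON replicate 1. A difference between PND and CON was not detectable at this depth in any of the 3 (unadjusted p in limma 0.79, 0.51 and 0.84).

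The proteins of the large subunit with a bacterial counterpart were encoded by 30 of the genes. None of them had an unadjusted p below 0.05, 15 had a log2 fold change above 0 and 15 below, and the median was -0.011. Mrpl18 and Mrpl27, both in the central protuberance at the top of the large subunit, were among the genes with the smallest and the largest fold changes. Mrpl18, whose bacterial counterpart binds 5S rRNA, measured 8.41, 8.62 and 12.1 FPKM in PND and 11.8, 12.7 and 11.6 FPKM in CON. PND replicates 1 and 2 were below all CON samples and PND replicate 3 lay among them (log2 fold change -0.33 ± 0.17 (SE), unadjusted p = 0.087 in limma). Without PND replicate 3 the value was -0.50 and p was 0.00995, and after correction for GC content it was -0.35 with a p of 0.040.

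Mrpl27 measured 5.18, 2.75 and 2.197 FPKM in PND and 1.91, 3.45 and 1.04 FPKM in CON. The groups overlapped, with PND replicate 1 highest and CON replicate 3 lowest (log2 fold change 0.70 ± 0.47 (SE), unadjusted p = 0.18 in limma). Without CON replicate 2 the log2 fold change was 1.11 and p was 0.036, whereas without CON replicate 3 it was 0.29 (p of 0.53) and without PND replicate 1 it was 0.35 (p of 0.49). The 8 central protuberance genes together had a median of -0.14, with 3 above 0, 5 below and none past the test.

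Mrpl1, Mrpl10, Mrpl11, Mrpl12, Mrpl53 and Mrpl54 were listed together as genes of the stalks of the large subunit. Their log2 fold changes were from 0.033 to 0.62, above 0 in 6 of 6 genes beside 52.4% of all genes tested. With quantile normalization 5 of the 6 were above 0 (not Mrpl53). When 1 sample was left out the count was 4 or 5, lowest without PND replicate 3, and Mrpl1, Mrpl10 and Mrpl53 were the genes that changed side. None of the 6 had an unadjusted p below 0.05 in limma, and in each the samples of PND and CON overlapped. Mrpl12, the stalk protein that also binds the mitochondrial RNA polymerase, measured 6.99, 6.06 and 9.11 FPKM in PND and 3.88, 5.54 and 7.40 FPKM in CON. CON replicate 1 was lowest and PND replicate 3 highest (log2 fold change 0.42 ± 0.26 (SE), unadjusted p = 0.15). Without CON replicate 3 the value was 0.64 with a p of 0.042, and without CON replicate 1 it was 0.18 with a p of 0.44. Mrpl54 measured 2.59, 3.23 and 4.23 FPKM in PND and 3.29, 1.62 and 1.72 FPKM in CON. CON replicate 1 lay inside the PND range and the other CON samples lay below it (log2 fold change 0.62 ± 0.31 (SE), unadjusted p = 0.086). Without CON replicate 1 the value was 0.94 and p was 0.0078, with an adjusted p over all genes of at least 0.888.

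The proteins of the large subunit found only in mitochondria were encoded by 21 genes, of which Mrpl57 was higher and Mrpl42 lower at an unadjusted p below 0.05. This group had a median log2 fold change of 0.0078, with 11 above 0 and 10 below. Mrpl57, a small protein of the large subunit, lies on chromosome 14 (chr14:57826234-57829296, plus strand, GRCm38). It measured 2.92, 3.38 and 2.98 FPKM in PND replicates 1 to 3 and 2.07, 1.85 and 2.46 FPKM in CON replicates 1 to 3. All PND samples lay above all CON samples, which 3.78% of all genes tested did. The log2 fold change was 0.53 ± 0.18 (SE, 95% interval 0.099 to 0.96), and in limma its unadjusted p was 0.022 and its adjusted p 0.99987. Without PND replicate 2 the unadjusted p was 0.074 and without CON replicate 2 it was 0.057. The gene was covered by 63.7 fragments per sample, and a stretch of at least 40 of its exon bases was also present in 1 other gene. Its neighbour Ska3, of the kinetochore, was at 0.250 to 0.377 FPKM in PND and 0.163 to 0.472 FPKM in CON, and these groups overlapped.

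Mrpl42 lies on chromosome 10 (chr10:95480805-95501940, minus strand). It measured 12.7, 13.7 and 13.6 FPKM in PND and 15.8, 15.8 and 15.9 FPKM in CON. All CON samples lay above all PND samples (13.3 ± 0.524 against 15.8 ± 0.0183 FPKM, mean ± SD, n = 3 each), as 3.88% of all genes tested did. The CON samples were closer to each other than counting error would make them on average, since 437 fragments per sample give a counting error of 4.78%. The log2 fold change was -0.25 ± 0.10 (SE, 95% interval -0.49 to -0.0098), with an unadjusted p of 0.043 in limma. When any 1 of the 6 samples was left out, p rose above 0.05, from 0.066 without CON replicate 1 to 0.14 without PND replicate 1. Stretches of at least 40 exon bases of Mrpl42 were also present in 182 other genes, and how the authors' counting divided such reads was not known.

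Mrpl49 was the third highest of the genes and is a large subunit protein found only in mitochondria. It measured 18.6, 16.97 and 19.2 FPKM in PND and 15.9, 15.3 and 16.9 FPKM in CON. The groups did not overlap, although PND replicate 2 and CON replicate 3 nearly met (log2 fold change 0.18 ± 0.11 (SE), unadjusted p = 0.13 in limma). Exons of Mrpl49 overlap those of Syvn1 on the opposite strand, and the use of strand in counting was not stated.

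The log2 fold changes of Mrpl58 and Mrpl45, -0.14 and 0.13, did not pass the test. Mrpl58, a peptidyl-tRNA hydrolase that became part of the ribosome and rescues stalled ones, measured 1.50, 1.81 and 1.46 FPKM in PND and 1.84, 1.68 and 1.73 FPKM in CON (unadjusted p = 0.51). Mrpl45, at the exit tunnel where the ribosome is anchored to the inner membrane, measured 6.26, 6.22 and 6.01 FPKM in PND and 5.30, 5.27 and 6.38 FPKM in CON (unadjusted p = 0.38). Both genes overlapped between the groups, and for both the CON samples held the highest value. The 7 exit tunnel genes had a median log2 fold change of 0.037, and none had an unadjusted p below 0.05 in limma.

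Despite their names, Mrps30 and Mrps18a encode large subunit proteins. Mrps30 measured 9.17, 5.57 and 6.90 FPKM in PND and 7.05, 10.03 and 9.88 FPKM in CON, with the groups overlapping (log2 fold change -0.32 ± 0.22 (SE), unadjusted p = 0.19). Mammals have 3 Mrps18 genes for proteins related to 1 bacterial small subunit protein. Mrps18a ranged from 1.48 to 2.38 FPKM in PND and from 1.46 to 2.40 FPKM in CON. Mrps18b, of the small subunit, ranged from 1.29 to 1.64 and from 1.29 to 1.74 FPKM, and Mrps18c, also of the small subunit, from 2.34 to 4.39 and from 3.69 to 4.02 FPKM. The 3 log2 fold changes were -0.063, -0.037 and -0.19, and their unadjusted p in limma were 0.82, 0.87 and 0.46. The level of Mrps18c, per length, was above that of Mrps18a and Mrps18b in each of the 6 samples.

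The small subunit was encoded by 16 genes with a bacterial counterpart and 10 without. In the first set none had an unadjusted p below 0.05, 8 log2 fold changes were above 0 and 8 below, and the median was -0.012. In the second set Mrps23 was higher in PND, 5 log2 fold changes were above 0 and 5 below, and the median was 0.032.

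Mrps23 lies on chromosome 11 (chr11:88204388-88211507, plus strand). It measured 7.67, 7.40 and 7.23 FPKM in PND and 6.14, 6.41 and 4.84 FPKM in CON. All PND samples lay above all CON samples, and CON replicate 3 was lowest (log2 fold change 0.36 ± 0.15 (SE), 95% interval 0.012 to 0.71, unadjusted p = 0.044 in limma). The value was 0.24 with a p of 0.15 without CON replicate 3, and p was 0.12, 0.090 and 0.081 without PND replicates 1, 2 and 3. After correction for GC content p was 0.075. No exon of Mrps23 overlapped another gene or shared a stretch of 40 bases with one, and it was covered by 85.4 fragments per sample.

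Mrps27, a pentatricopeptide repeat protein of the small subunit that binds mitochondrial rRNA and tRNA, lies on chromosome 13 (chr13:99344786-99415562, plus strand). It measured 5.32, 3.35 and 5.48 FPKM in PND and 5.56, 7.17 and 5.72 FPKM in CON. All CON samples lay above all PND samples, by little except for PND replicate 2 and CON replicate 2 (log2 fold change -0.40 ± 0.22 (SE), unadjusted p = 0.12 in limma). After correction for GC content p was 0.023, with a log2 fold change of -0.44. Without PND replicate 2 the value was -0.18. Ptcd2, a pentatricopeptide repeat protein gene involved in the processing of mitochondrial RNA, shares the start region and runs the other way. It measured 10.6, 11.7 and 12.1 FPKM in PND and 14.2, 15.2 and 13.3 FPKM in CON, which did not overlap (log2 fold change -0.31 ± 0.12 (SE), unadjusted p = 0.033, adjusted p = 0.99987). For Ptcd2, p was 0.12, 0.064, 0.056 and 0.085 without PND replicate 1, PND replicate 2, CON replicate 1 and CON replicate 2. Ptcd2 was picked out after its values had been seen, as the 1 back-to-back neighbour of the 33 genes with an unadjusted p below 0.05. Over all genes tested the share with such a p was 3.13%.

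**Figure D2:**
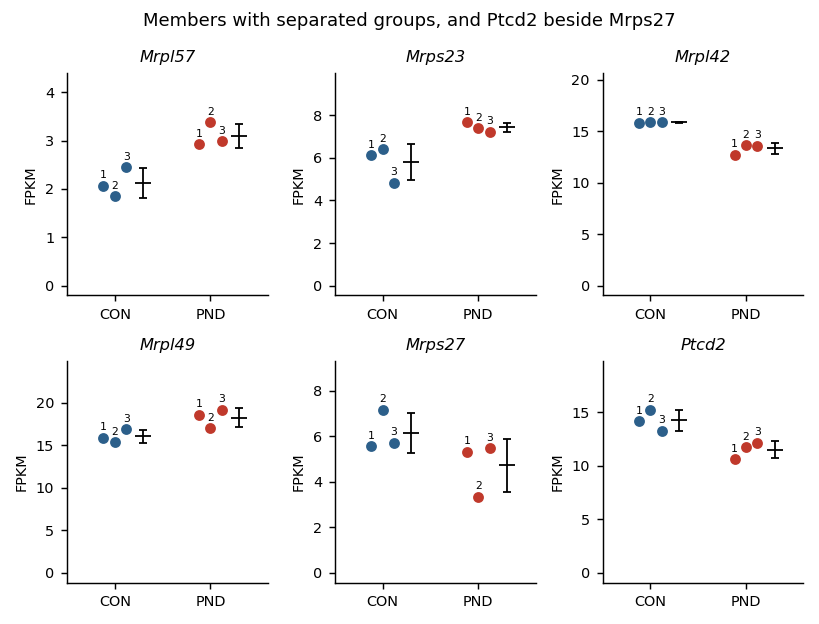
FPKM in each of the 3 CON (blue) and 3 PND (red) samples, numbered by replicate, with the mean and SD of each group in black, for the 5 genes of the family whose groups do not overlap and for Ptcd2, the neighbour of Mrps27. PND is above CON in Mrpl57, Mrps23 and Mrpl49 and below it in Mrpl42, Mrps27 and Ptcd2.

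In all, 5 of the 78 genes (6.41%) had groups that did not overlap, beside 7.66% of all genes tested. The other small subunit genes with low fold changes overlapped between the groups. Mrps10, with a bacterial counterpart, measured 1.18, 1.09 and 0.667 FPKM in PND and 1.45, 1.17 and 1.21 FPKM in CON (unadjusted p = 0.21). Mrps35, found only in mitochondria, measured 2.81, 2.08 and 2.13 FPKM in PND and 2.66, 2.73 and 3.49 FPKM in CON (unadjusted p = 0.15). In Mrps10 PND replicate 3 lay lowest, and in Mrps35 CON replicate 3 lay highest.

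Inherited defects of 16 of the genes are known to cause human mitochondrial disease. Of these, 13 had a log2 fold change above 0 and 3 below, beside 52.4% above 0 among all genes tested. The median was 0.070, beside 0.012 over all genes tested. Without CON replicate 1, however, the count above 0 was 8, beside 47.4% of all genes. Mrps23 alone had an unadjusted p below 0.05 in limma, which 3.13% of all genes tested had.

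The summed level of the 78 genes was 347.7, 327.7 and 359.2 FPKM in PND replicates 1 to 3 and 328.2, 372.9 and 344.5 FPKM in CON replicates 1 to 3. The mean sum was 344.8 ± 15.9 FPKM for PND mice and 348.5 ± 22.6 FPKM for CON mice (SD, n = 3 each), and the groups overlapped, with CON replicate 2 highest. The ratio of the summed Mrpl to the summed Mrps level was 1.96, 2.27 and 2.06 in PND and 2.19, 1.91 and 1.97 in CON. Relative to all FPKM of nuclear genes the sum was 0.223% to 0.240% in PND and 0.220% to 0.248% in CON.

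**Figure D3:**
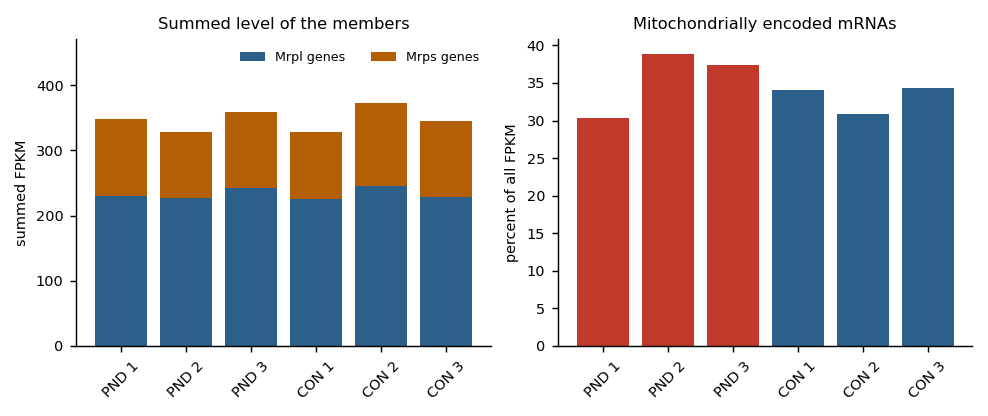
Left, the summed FPKM of the Mrpl (blue) and Mrps (orange) genes in each sample; right, the share of all FPKM taken by the 13 mitochondrially encoded mRNAs, in percent, with PND in red and CON in blue. The sums lie between 327.7 and 372.9 FPKM and the shares between 30.4% and 38.8%, and in both plots the groups overlap.

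Samples differed with the GC content of the genes, and the correlations of the 78 genes went the same way as those of all genes except in PND replicate 1. Over the genes, the Spearman correlation between GC content (38.6% to 60.4%) and the log2 deviation of a sample from the mean of each gene was -0.083, -0.17 and 0.45 in PND replicates 1 to 3 and -0.41, 0.41 and -0.13 in CON replicates 1 to 3. These are descriptions across genes that share a library, with n = 78. Over all genes of at least 1 FPKM the correlations were 0.18, -0.45, 0.57, -0.61, 0.54 and -0.11 in the same order. In the 26 genes of highest GC content the median deviation was 0.28 in PND replicate 3 and 0.36 in CON replicate 2, and it was -0.16 in PND replicate 2 and -0.23 in CON replicate 1. Each group thus held a sample with high and a sample with low values of the GC-rich genes. CON replicate 1 was the lowest of the 6 samples in 21 of the 78 genes (26.9%), beside 26.2% of all genes of at least 1 FPKM. CON replicate 2 was the highest in 23 (29.5%), beside 26.2%. The median log2 fold changes of the 26 genes of low, the 26 of middle and the 26 of high GC content were -0.032, 0.0071 and 0.0022.

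**Figure D4:**
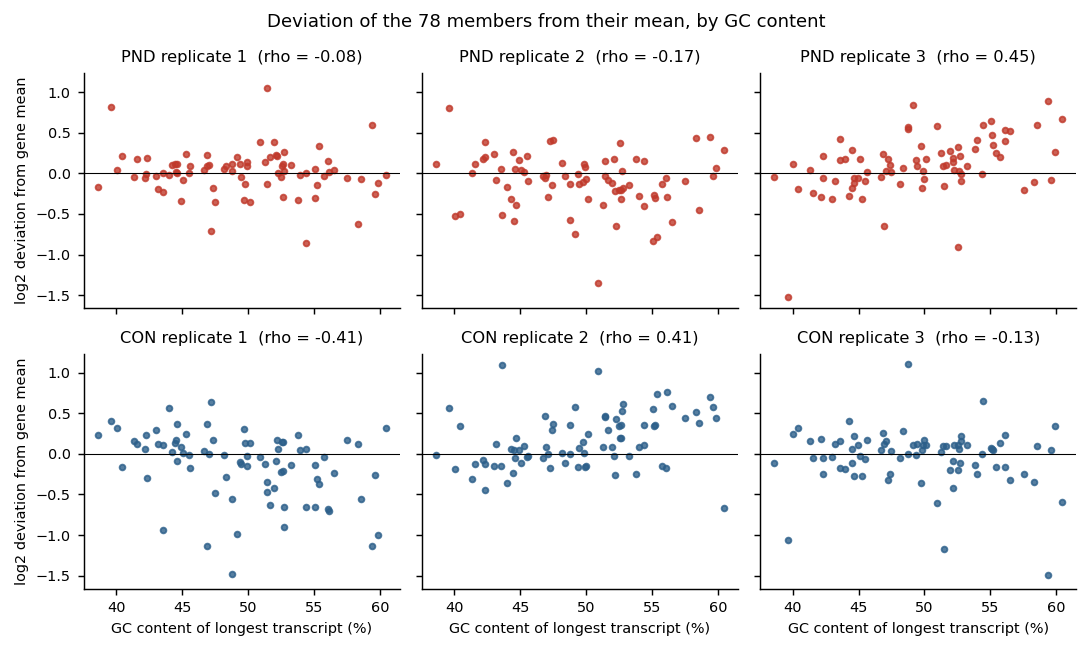
The log2 deviation of each gene from its mean over the 6 samples (vertical) is plotted against the GC content of its longest transcript in percent (horizontal), with 1 panel per sample, PND in red and CON in blue, and 1 point for each of the 78 genes. The points slope up in PND replicate 3 and CON replicate 2 (rho 0.45 and 0.41) and down in CON replicate 1 (rho -0.41).

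Some genes varied more within the groups than between them. The highest sample of a group was more than 3 times the lowest in 11 of the 78 genes, and these were singled out after the values had been seen. No share over all genes stands beside this count. Among them, Mrpl20, Mrpl14, Mrpl36, Mrps24, Mrps28 and Mrpl55 had a mean of fewer than 20 estimated fragments per sample. Their counting error was 26.4% to 50.3%, and the others had means of 22.8 to 194.8 fragments. Mrps14, a small subunit protein with a bacterial counterpart, measured 4.14, 4.09 and 0.735 FPKM in PND and 3.08, 3.44 and 1.06 FPKM in CON. Replicate 3 was low in both groups, at 22.6 and 24.9 estimated fragments against 74.8 to 120.1 in the other samples, and the log2 fold change was 0.062 ± 0.71 (SE, unadjusted p = 0.93). Stretches of at least 40 exon bases of Mrps14 occur in 354 other genes.

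Mrpl16, a large subunit protein with a bacterial counterpart, measured 4.53, 3.72 and 7.22 FPKM in PND and 2.74, 11.5 and 5.95 FPKM in CON. CON replicates 1 and 2 were the lowest and the highest sample, at 64.6 and 298.0 estimated fragments, and the cause of this gap was not tested. Mrpl14, of the large subunit, had the highest log2 fold change of the family, 1.29 ± 0.56 (SE, unadjusted p = 0.055 in limma), at levels of 1.06, 0.952 and 1.34 FPKM in PND and 0.251, 1.15 and 0.174 FPKM in CON. CON replicate 2 lay among the PND samples, and CON replicates 1 and 3 rested on 1.78 and 1.19 estimated fragments. The value of so low a gene depends on the pseudocount, and with a pseudocount of 1 the log2 fold change was 0.52. Without CON replicate 2 the log2 fold change was 1.96 and p was 0.00067, with no gene of the 78 below an adjusted p of 0.448, whereas without CON replicate 3 it was 0.86 with a p of 0.17. Exons of Mrpl14 overlap those of Tmem63b on the opposite strand.

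**Figure D5:**
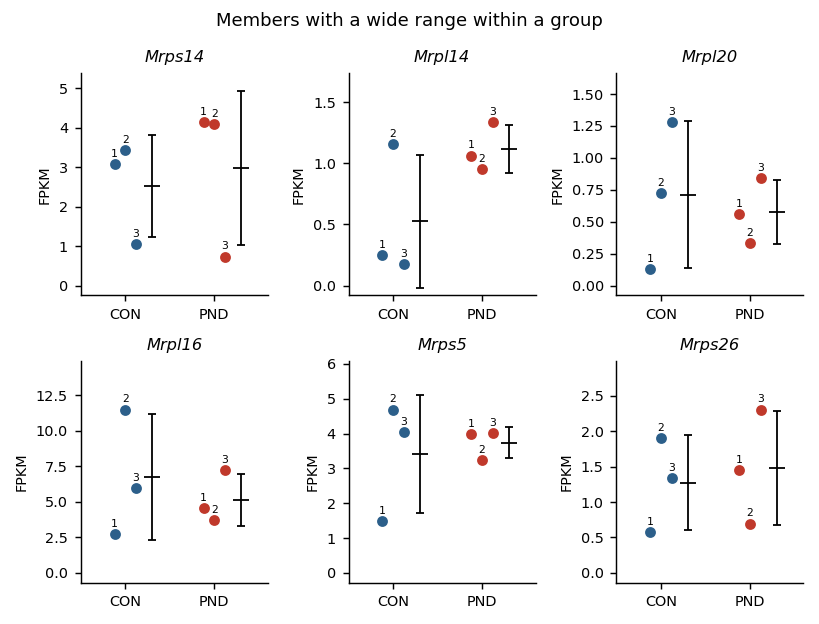
FPKM in each of the 3 CON (blue) and 3 PND (red) samples, numbered by replicate, with the mean and SD of each group in black, for 6 genes with a range of over 3 times within a group. Mrps14 is low in replicate 3 of both groups (0.735 and 1.06 FPKM), and CON replicate 1 is the lowest sample in Mrpl20, Mrpl16, Mrps5 and Mrps26.

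Among the lists of other genes of mitochondrial translation, only Mterf1b (1 of the 11 in its list) and mt-Atp6 (1 of 13) had an unadjusted p below 0.05. Of all genes tested, 3.13% had such a p. Of 5 mitochondrial ribosome proteins that carry other names, none had an unadjusted p below 0.05, and Dap3, a GTP-binding protein of the small subunit, measured 2.58, 2.86 and 2.50 FPKM in PND and 2.83, 2.77 and 2.30 FPKM in CON (unadjusted p = 0.96). None of 13 translation factors, 24 assembly and rRNA modification factors or 17 mitochondrial aminoacyl-tRNA synthetases had an unadjusted p below 0.05 in limma. Their median log2 fold changes were 0.061, 0.026 and 0.12. Tufm, the elongation factor Tu of mitochondria, measured 3.17, 2.18 and 5.36 FPKM in PND and 1.76, 4.56 and 3.44 FPKM in CON, which overlapped (unadjusted p = 0.76).

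Among 11 genes of mitochondrial transcription and mRNA stability, Mterf1b, of the transcription termination factor family, was lower in PND. It measured 2.40, 3.51 and 3.19 FPKM in PND and 4.58, 3.68 and 4.78 FPKM in CON, and the groups did not overlap (log2 fold change -0.51 ± 0.20 (SE), unadjusted p = 0.037, adjusted p = 0.99987 in limma). For Mterf1b, p was 0.13, 0.059, 0.084 and 0.11 without PND replicate 1, PND replicate 3, CON replicate 1 and CON replicate 3. Its near copy Mterf1a overlapped between the groups (log2 fold change 0.068, unadjusted p = 0.77), and reads could have been divided between these copies. Lrpprc, which stabilizes mitochondrial mRNAs, measured 13.5, 13.5 and 12.7 FPKM in PND and 13.7, 11.9 and 13.7 FPKM in CON (unadjusted p = 0.88).

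The 13 mRNAs translated by the mitochondrial ribosome took 30.4%, 38.8% and 37.4% of all FPKM in PND and 34.0%, 30.9% and 34.3% in CON. These shares include mt-Atp6, whose high values in PND replicates 2 and 3 are given below. mt-Co1, a cytochrome c oxidase subunit, measured 14543, 16801 and 16856 FPKM in PND and 16843, 15238 and 15491 FPKM in CON, and the groups overlapped (unadjusted p = 0.91). mt-Atp6, an ATP synthase subunit, measured 2021, 12595 and 12017 FPKM in PND and 2539, 1542 and 1965 FPKM in CON. PND replicates 2 and 3 were far above the other 4 samples, and PND replicate 1 lay within the CON range (log2 fold change 1.77 ± 0.67 (SE), unadjusted p = 0.031, adjusted p = 0.99987 in limma). Without PND replicate 1 the value was 2.64 with a p of 1.49e-05, and without PND replicates 2 and 3 in turn it was 1.32 and 1.35 with a p of 0.11 and 0.10. Without CON replicates 2 and 3 in turn p was 0.083 and 0.073. mt-Atp8, which overlaps mt-Atp6 in the mitochondrial genome, measured 7007, 9273 and 9943 FPKM in PND and 7408, 7971 and 9317 FPKM in CON, and its groups overlapped (unadjusted p = 0.68). Whether reads were divided between mt-Atp6 and mt-Atp8 was not tested. The other 12 of these mRNAs had an unadjusted p above 0.05.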

How the data were processed

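Sequencing libraries of total RNA from prefrontal cortex were made by the authors after removal of ribosomal RNA. Reads were filtered with Seqtk, aligned with HISAT2, counted per gene with StringTie and scaled by TMM, and the authors deposited the FPKM of 21006 Ensembl genes for each of the 6 mice. The notes of the submitters also name Bowtie 0.12.2 and the builds mm8 and mm9 without a role. The build, annotation and strand used for the FPKM are not given in the sources used here, so reads of overlapping genes or near-identical copies may have been divided in an unknown way. Depth is not given in the deposited values. It was estimated from the steps of low FPKM times exon length, where 45.1% to 48.7% of the values tested lay within 0.05 of a whole fragment, against 10% without steps, so fragment numbers are approximate.

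Symbols were matched for 20866 identifiers. GENCODE M21 (GRCm38) held 20877 identifiers and gave positions, the length of exons and GC content, and RefSeq gave promoters. Groups came from the treatment labels and replicate numbers from the titles. The groups were compared with limma 3.58.1 in R 4.3.3, by lmFit and then eBayes with its trend option. Values were log2(FPKM + 0.1), and 18185 genes whose mean reached 0.1 FPKM were tested, with Benjamini-Hochberg adjustment over all of them and no covariate. This scale understates changes of low genes. All p-values in the text are from limma, two-sided, and unadjusted unless stated. They are from this fit, except those given without a sample or after GC correction, which are from the same fit repeated with that change. They measure the spread between single mice, and an exact permutation test of 3 against 3 could not go below 0.1.

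Genes were named by rule: those of the 78 with an unadjusted p below 0.05, the 4 largest and 4 smallest fold changes at 1 FPKM or more, the 5 highest and 3 lowest levels, Mrps18a, Mrps18b, Mrps18c, Mrps30, Mrps36, Mrpl12, Mrpl58 and Mrpl45, and, of the other genes of the pathway, those with an unadjusted p below 0.05 with mt-Co1, Tufm, Lrpprc and Dap3. Others were picked after their values were seen. The 78 genes and all lists were chosen with earlier results of these data known. Alternatives were other pseudocounts, filters, scalings, GC and length corrections, limma without the trend, voom on estimated fragments, the replicate block and leaving out each sample. The result of 1 marker gene is not reported here.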

Additional observations from a re-analysis of the deposited data

How the results depend on the processing

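The number of the 78 genes with an unadjusted p below 0.05 (3) was 1 without the intensity trend, 1 with voom on estimated fragments and 0 with the replicate block, and 0 to 3 when 1 sample was left out. It was 4 with GC correction (Mrpl14, Mrpl18, Mrpl57 and Mrps27) and 3 with GC correction and the replicate block (Mrpl14, Mrpl57 and Mrps27), so Mrpl42 and Mrps23 were not among them. The number past the cut-off of the study (0) was 1 with quantile normalization, median centring, GC correction, GC correction with the replicate block and length correction, each time Mrpl14, and 0 to 2 when 1 sample was left out. It was 2 without CON replicate 2, Mrpl14 and Mrpl27. The median log2 fold change ranged from -0.105 without CON replicate 1 to 0.0356 without CON replicate 2. The cause of these changes was not tested. Leaving out a sample leaves 2 against 3, which lowers the precision.

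Of the named genes, Mrpl57 kept an unadjusted p below 0.05 in 15 of 18 alternatives, Mrps23 in 8 and Mrpl42 in 4, and the direction of these 3 was the same in all 18. Same-numbered PND and CON samples did not deviate together (correlations of -0.049, -0.451 and 0.027 across genes). Between differently numbered samples the correlations ranged from -0.418 (PND replicate 3 with CON replicate 1) to 0.427 (PND replicate 2 with CON replicate 1). Such correlations cannot show whether the numbers pair the mice, because the samples also differed with GC content. Under the replicate block 361 genes in all had an unadjusted p below 0.05, against 569 without it. Depth limits 14 of the 78 genes, which had a mean of fewer than 20 estimated fragments per sample.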
